A study of Mus musculus with 18 samples.

Results

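The genes described here are 10 lysosomal genes that phagocytes are known for: the proteases Ctsb, Ctsl, Ctss, Ctsz, Ctsd and Lgmn, the lysozyme gene Lyz2, and the membrane protein genes Cd68, Laptm5 and Gpnmb. They were chosen by symbol, with earlier results of these data known, as were the gene lists used below. Their counts set beside those of all genes are therefore a description. All 10 were found among 48529 genes, and all 10 passed the filter on low counts that left 15774 genes for testing. RNA-seq was done on whole dorsal root ganglia (DRG, which hold the cell bodies of sensory neurons with their glia, vessels and resident immune cells) of male C57BL/KaLwRijHsd mice, a strain that accepts 5TGM1 mouse myeloma cells. The ganglia were L2 to L4 of the operated side, the mice were 5 to 7 weeks old, and tissue was taken 24 days after surgery. In the MM group, 9 mice had 5TGM1-GFP myeloma cells put into the femur, and in the SHAM group 9 mice had vehicle put there. No treatment or allele other than these is named for either group, and the myeloma cells are a single line.

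A lysosome is an acidic organelle that breaks down what a cell takes up or recycles. Its proteases are made as inactive precursors, carried there by mannose 6-phosphate receptors and activated by low pH and by one another. Macrophages and other phagocytes carry large lysosomes rich in CD68, cathepsin S and lysozyme, while neurons and glia also use cathepsins B, D and L for the turnover of their own proteins, so a whole ganglion holds several sources of these transcripts.

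Each library held between 19218249 and 21771206 estimated reads, and levels are given as CPM (a read count over the TMM-scaled library size) unless another scale is named. In these libraries 3 reads were worth 0.140 to 0.160 CPM, and the lowest value of any of the 10 genes was 38 reads, for Cd68 in SHAM1. Ganglion neuron markers (8 of 8 measured) summed to 5163 to 10800 CPM in MM and 8021 to 10340 CPM in SHAM libraries. Libraries MM5, MM8 and MM9 stood apart in the myeloma marker Ighg2b, an immunoglobulin heavy chain constant gene, at 2197, 2334 and 4374 CPM against 11.7 to 390 CPM in the other 6 MM libraries. Ighg2b was low in MM2, at 11.7 CPM, which lay under SHAM5 at 14.8 CPM and SHAM9 at 16.4 CPM, while the other 7 SHAM libraries were at 0.1003 to 2.83 CPM. Results on the 10 genes are therefore also given without MM5, MM8 and MM9.

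Of the 10 lysosomal genes, Cd68, Ctss and Ctsz rose in MM and none fell, by edgeR's quasi-likelihood test with Benjamini-Hochberg adjustment over all genes tested. That is 3 of 10, where 2.75% of all genes tested were called higher. The count of 0 lower stands beside 0.241% of all genes. At an unadjusted p under 0.05 edgeR had 5 of the 10 higher and 0 lower. Here and below, the share of all genes at an unadjusted p under 0.05 was not counted. Counts at that threshold therefore have no background beside them. DESeq2 called 5 of 10 higher, adding Laptm5 and Lgmn, and 0 lower, where it called 5.99% of all genes higher. Without MM5, MM8 and MM9 edgeR called Ctss alone, 1 of 10, where 0.331% of genes were called higher. The log2 fold changes of the 10 genes were all above 0, with a median of 0.23 against 0.00 over all genes tested, and 48.9% of all genes tested had a value above 0. The members differed widely in the size of the change, from a log2 fold change of 3.11 for Cd68 to 0.01 for Ctsb and Ctsd.

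**Figure D1:**
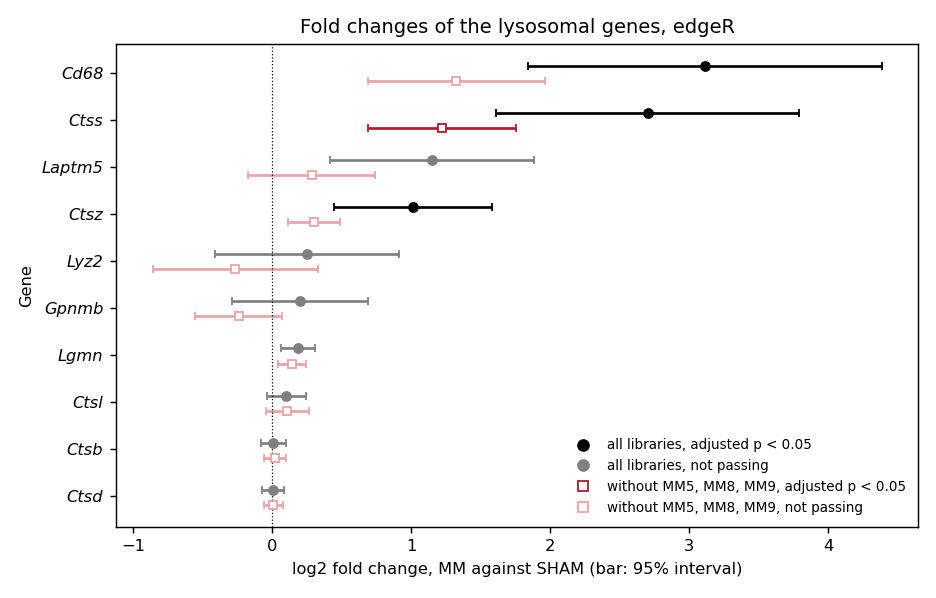
Log2 fold change of each gene between 9 MM and 9 SHAM libraries (horizontal axis), with 95% intervals, from edgeR, for all libraries and without MM5, MM8 and MM9. Cd68, Ctss and Ctsz lie to the right with all libraries and move toward 0 without those 3, while Ctsb and Ctsd sit near 0 in both.

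The 10 genes spanned more than 2 orders of magnitude in the vehicle group when compared per transcript length, in TPM (read count over transcript length, scaled to the same total in each library). The level in SHAM was highest for Ctsb, a broad cysteine protease, at 943 ± 70.2 TPM, and next for Ctsl, a cysteine endopeptidase, at 845 ± 85.6 TPM (SD, n = 9 for these and the TPM values that follow). Their ranges overlapped, and Ctsb was the higher of both in 6 of 9 SHAM and 7 of 9 MM libraries. Ctsd, the main aspartic protease of the lysosome, followed at 708 ± 22.3 TPM and Lgmn, the asparaginyl endopeptidase legumain, at 272 ± 19.98 TPM. These 4 proteases made up 93.5 ± 1.93% of the summed TPM of the 10 genes in SHAM and 87.5 ± 8.22% in MM, with 73.9% in MM5, 84.2% in MM8 and 73.9% in MM9. A gene's TPM is the sum over its transcripts, in which a read on a short transcript weighs more. In SHAM 7.34% of Ctsb reads were given to an 801-base retained-intron transcript, and 14.8% of Ctsl reads to a 698-base one. The main transcripts have 4743 bases for Ctsb, 1971 for Ctsl and 2127 for Ctsd. The order of Ctsb, Ctsl and Ctsd therefore hangs on how Salmon divided reads between transcripts.

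The other 6 genes formed a lower tier. Ctsz, a carboxypeptidase cathepsin, stood at 83.3 ± 11.6 TPM in SHAM, and Lyz2, the lysozyme of macrophages and neutrophils, at 75.8 ± 39.9 TPM with an overlapping range. Ctss, the cathepsin of antigen-presenting cells, was at 14.2 ± 4.84 TPM and Laptm5, a lysosomal membrane protein of blood cells, at 11.5 ± 4.30 TPM, again with overlapping ranges. Cd68, the heavily glycosylated macrophage membrane protein, was at 5.84 ± 2.30 TPM and Gpnmb, a transmembrane glycoprotein of lysosome-loaded phagocytes and of melanosomes, at 4.42 ± 1.48 TPM. Cd68 exceeded Gpnmb in 7 of 9 SHAM libraries and in 9 of 9 MM libraries. In MM the order shifted at 1 place, since Cd68 averaged 46.7 TPM and Laptm5 23.6 TPM, and Laptm5 was the higher in only 2 of 9 MM libraries against 9 of 9 SHAM libraries.

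**Figure D2:**
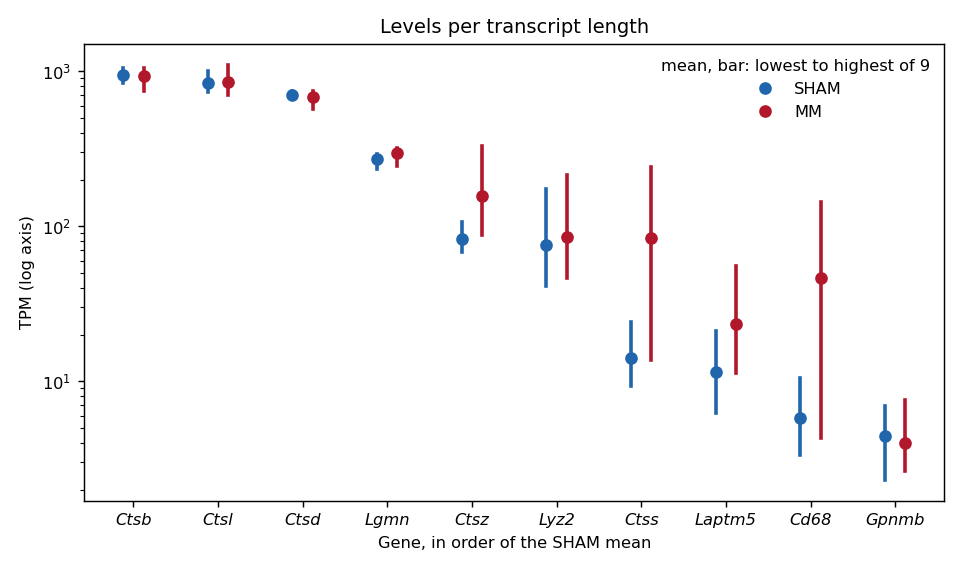
Level of each gene per transcript length (vertical log axis, TPM; points are means and bars run from the lowest to the highest of 9 libraries), ordered by the SHAM mean. Ctsb, Ctsl, Ctsd and Lgmn form the upper tier with short bars, and the longest MM bars are those of Cd68 and Ctss.

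The sequence before the start of the 3 genes that rose is shown because it is the region in which letters for factors of macrophages and of lysosomal genes would be looked for. RefSeq (GRCm38.p6) gave a window for 9 of the 10 genes, with none matched for Ctsb and 2 for Lgmn, and the 250 bases before each start were searched on both strands. The search used 4 patterns. GAGGAA is a core bound by ETS factors such as PU.1, TGANTCA a core bound by AP-1, CACGTG the E-box, and TCACGTGA the longer E-box of the lysosomal gene network bound by TFEB. Each TCACGTGA also holds CACGTG. Capitals mark matches in the 3 windows below, given 5′ to 3′ on the strand of the gene.

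Cd68 (chr11:69666171-69666420, minus strand): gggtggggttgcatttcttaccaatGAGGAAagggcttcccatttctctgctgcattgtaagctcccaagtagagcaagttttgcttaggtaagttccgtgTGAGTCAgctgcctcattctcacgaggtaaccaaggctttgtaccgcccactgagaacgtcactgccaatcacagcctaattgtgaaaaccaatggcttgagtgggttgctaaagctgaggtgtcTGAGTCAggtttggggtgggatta
Ctss (chr3:95526536-95526785, plus strand): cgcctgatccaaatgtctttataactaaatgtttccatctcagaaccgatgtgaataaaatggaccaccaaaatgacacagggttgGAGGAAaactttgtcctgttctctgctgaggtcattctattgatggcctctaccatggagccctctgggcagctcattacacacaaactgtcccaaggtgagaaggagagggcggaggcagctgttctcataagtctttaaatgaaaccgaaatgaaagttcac
Ctsz (chr2:174439040-174439289, minus strand): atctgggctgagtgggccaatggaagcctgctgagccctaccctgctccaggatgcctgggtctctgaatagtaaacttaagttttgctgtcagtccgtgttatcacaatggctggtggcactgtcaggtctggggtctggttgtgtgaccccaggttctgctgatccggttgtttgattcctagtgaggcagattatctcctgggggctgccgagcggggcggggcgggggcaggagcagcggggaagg

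Cd68 held GAGGAA starting 225 bases before the start and TGANTCA at 149 and 24 bases before it, Ctss held GAGGAA at 164 bases, and Ctsz held none of the 4 patterns. GAGGAA was found in 3 of the 9 genes with a window, Cd68, Ctss and Laptm5, and in 23.3% of all 32851 windows. TGANTCA was found in Cd68 alone of the 9, and in 6.75% of all windows. The E-box patterns lay in other members. CACGTG was found in Ctsd, Ctsl and Lgmn and in 6.02% of all windows, and TCACGTGA was found in Ctsd alone and in 0.790% of all windows. Stretches of 30 bases around these sites, and around the GAGGAA of Laptm5, which reads as TTCCTC on the strand shown, follow with the match in capitals. Start sites differ between annotations: in GENCODE M21 (GRCm38) exons cover all 30 bases of the Ctsd and Laptm5 stretches, 15 of the 30 of Ctsl and none of Lgmn. Ctsd held a second CACGTG at 245 bases before the start, which is not shown.

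Ctsd (chr7:142387908-142387937, minus strand): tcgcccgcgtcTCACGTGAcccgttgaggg
Ctsl (chr13:64370739-64370768, minus strand): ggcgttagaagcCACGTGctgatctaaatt
Lgmn (chr12:102439124-102439153, minus strand): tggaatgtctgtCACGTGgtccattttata
Laptm5 (chr4:130913266-130913295, plus strand): gcagcctgtggcTTCCTCttttttgttctg

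Among genes that rose, the cysteine protease Ctss (ENSMUSG00000038642), which trims the invariant chain for antigen presentation, ran from 5.86 CPM over a median of 8.18 to 15.7 CPM in SHAM libraries. In MM libraries it ran from 8.72 over a median of 25.5 to 178 CPM. All but MM2 lay above the highest SHAM library, and MM5 at 144, MM8 at 78.3 and MM9 at 178 CPM stood far above the other MM libraries, none of which passed 26.5 CPM. The means were 58.6 CPM (SD 62.0, n = 9) in MM and 9.00 CPM (SD 3.13, n = 9) in SHAM, a log2 fold change of 2.70 ± 0.52 (SE; 95% interval 1.61 to 3.79; edgeR adjusted p = 0.0159). When MM5, MM8 and MM9 were left out, the MM mean was 21.1 CPM (SD 6.71) and the log2 fold change 1.22 ± 0.25 (SE), at edgeR adjusted p = 0.0491. Ctss was the only one of the 10 genes to pass in both fits.

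Cd68 (ENSMUSG00000018774), whose protein coats the inner face of the macrophage lysosome, showed the largest change of the 10. It ran from 2.03 over a median of 2.65 to 5.94 CPM in SHAM, and from 2.41 over a median of 9.11 to 83.8 CPM in MM. MM2 was the single MM library inside the SHAM range. MM5 at 62.2, MM8 at 47.5 and MM9 at 83.8 CPM were the highest, and the next library, MM1, was at 12.2 CPM. The means were 26.7 CPM (SD 29.9, n = 9) in MM and 3.07 CPM (SD 1.22, n = 9) in SHAM, and the fold fitted by edgeR was 8.66 (95% interval 3.58 to 20.9; log2 fold change 3.11 ± 0.60 SE; edgeR adjusted p = 0.0171). Without MM5, MM8 and MM9 the MM mean was 7.73 CPM (SD 3.28) and the log2 fold change 1.33 ± 0.29 (SE), which no longer passed (edgeR adjusted p = 0.0678). Without SHAM7 and SHAM8, which held the most muscle marker RNA of their group, neither Cd68 (log2 fold change 3.02, edgeR adjusted p = 0.0847) nor Ctss (2.62, edgeR adjusted p = 0.0829) passed. That fit called 29 of all genes higher, against 433 with all libraries.

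Ctsz (ENSMUSG00000016256), a carboxypeptidase cathepsin abundant in myeloid cells, rose by a smaller factor from a higher base. It ran from 49.6 over a median of 53.1 to 74.1 CPM in SHAM, and from 60.5 over a median of 75.7 to 262 CPM in MM. The groups overlapped in 3 MM libraries, MM2, MM4 and MM7, and the gap to the rest was again that of MM5 at 198, MM8 at 159 and MM9 at 262 CPM, with MM1 next at 77.5 CPM. The log2 fold change was 1.02 ± 0.27 (SE; 95% interval 0.45 to 1.59), at edgeR adjusted p = 0.0483, just inside the threshold. With MM5, MM8 and MM9 left out it was 0.30 ± 0.09 (SE; edgeR adjusted p = 0.192), and leaving out any 1 of MM5, MM8, MM9 or SHAM1, SHAM2, SHAM3, SHAM4, SHAM5, SHAM7, SHAM8 and SHAM9 also ended the call, with adjusted p up to 0.111.

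**Figure D3:**
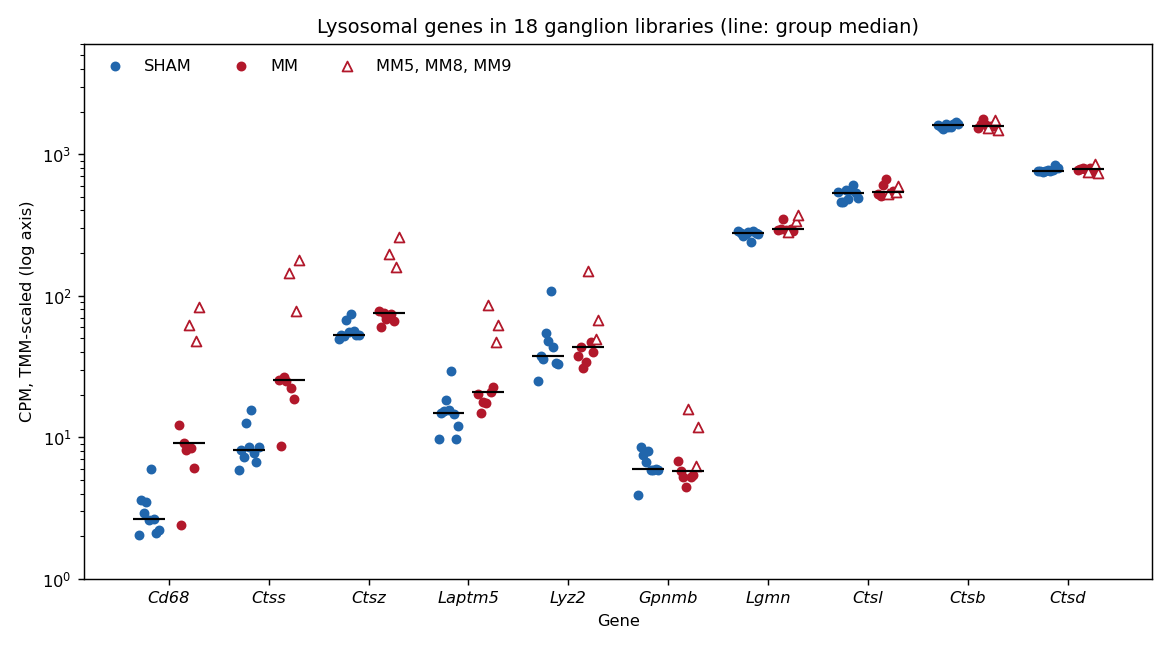
CPM of each of the 10 genes in every library (vertical log axes), SHAM beside MM, with MM5, MM8 and MM9 as open triangles. The triangles sit far above all other libraries for Cd68, Ctss and Ctsz, and inside or near the spread of the other libraries for Ctsb and Ctsd.

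The other membrane protein genes did not pass the test. Laptm5 (ENSMUSG00000028581), which carries receptors of blood cells to the lysosome, ran from 9.70 over a median of 14.8 to 29.6 CPM in SHAM and from 14.8 over a median of 21.0 to 86.6 CPM in MM. Its log2 fold change was 1.15 ± 0.35 (SE; 95% interval 0.42 to 1.88; edgeR adjusted p = 0.0726). Only MM5, MM8 and MM9 exceeded the highest SHAM library, and without them the log2 fold change was 0.29 ± 0.21 (SE; edgeR adjusted p = 0.723). The call was gained with DESeq2 (adjusted p = 0.0154) and in edgeR without MM2 or without SHAM6, at adjusted p down to 0.0385.

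Gpnmb (ENSMUSG00000029816) ran from 3.89 over a median of 5.99 to 8.53 CPM in SHAM and from 4.44 over a median of 5.81 to 15.7 CPM in MM. MM5 at 15.7 and MM9 at 11.9 CPM lay above every SHAM library, and MM8, at 6.27 CPM, did not. The log2 fold change was 0.20 ± 0.23 (SE; 95% interval -0.29 to 0.69; edgeR adjusted p = 0.623), and without MM5, MM8 and MM9 it was -0.24 ± 0.15 (SE; edgeR adjusted p = 0.651). The direction depended on the scale. In the authors' deposited table of normalized signal the ratio of the group means was 0.961, against 1.15 in CPM, and counts scaled for the estimated transcript length gave a log2 fold change of -0.05. For the other 9 genes the ratio of means in the authors' deposited table lay within 3.16% of that in CPM.

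Lyz2 (ENSMUSG00000069516), the gene whose promoter drives a widely used myeloid Cre, ran from 25.1 over a median of 37.7 to 109 CPM in SHAM and from 30.6 over a median of 43.7 to 149 CPM in MM. MM5 alone exceeded the highest SHAM library, SHAM6. The log2 fold change was 0.25 ± 0.31 (SE; 95% interval -0.41 to 0.92; edgeR adjusted p = 0.650), and its sign turned without MM5 (-0.09) and without MM5, MM8 and MM9 (-0.26 ± 0.28 SE, edgeR adjusted p = 0.828). MM8 and MM9, which were high for Cd68 and Ctss, lay within the SHAM range for Lyz2, at 49.2 and 67.0 CPM. Lyz2 shares sequence with Lyz1, to which 10 to 30 reads per library were assigned.

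The 4 abundant proteases did not pass the test. Ctsb (ENSMUSG00000021939) ran from 1506 over a median of 1614 to 1696 CPM in SHAM and from 1470 over a median of 1588 to 1781 CPM in MM, and the log2 fold change was 0.01 ± 0.04 (SE; edgeR adjusted p = 0.918). The 95% interval of its change ran from -5.54% to 7.21%. Ctsd (ENSMUSG00000007891) ran from 746 over a median of 764 to 844 CPM in SHAM and from 731 over a median of 779 to 854 CPM in MM, with an interval from -4.96% to 6.14% (log2 fold change 0.01 ± 0.04 SE, edgeR adjusted p = 0.937). In both genes the groups overlapped throughout, and the intervals leave out changes of 10% or more in either direction. Ctsl (ENSMUSG00000021477) ran from 456 over a median of 531 to 608 CPM in SHAM and from 507 over a median of 537 to 666 CPM in MM (log2 fold change 0.10 ± 0.07 SE, 95% interval -0.03 to 0.24, edgeR adjusted p = 0.351), with MM4 alone above every SHAM library.

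Lgmn (ENSMUSG00000021190), which activates cathepsins by cutting after asparagine, was shifted by a small amount in nearly every MM library. It ran from 238 over a median of 276 to 286 CPM in SHAM and from 281 over a median of 295 to 371 CPM in MM. MM5 was the only MM library at or under the highest SHAM library, so that the library with the second highest Cd68 had the lowest Lgmn of the MM group. The log2 fold change was 0.19 ± 0.06 (SE; 95% interval 0.07 to 0.31, or 4.75% to 24.1%), which did not pass in edgeR (adjusted p = 0.0754). It passed in DESeq2 (adjusted p = 0.0233) and in edgeR without scaling factors (adjusted p = 0.0339).

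The Lgmn reads were shared between a longer transcript (ENSMUST00000021607, 1990 bases) and a shorter one (ENSMUST00000110020, 1835 bases), both protein-coding. The shorter one took 13.4 ± 3.07% of the gene's reads in MM and 8.60 ± 2.50% in SHAM (SD, n = 9), 8.42% to 17.5% and 5.54% to 12.3%. The ranges overlapped, and the difference of 4.82 percentage points had p = 0.00271 in a 2-sided exact permutation test over libraries, which can give no p under 4.11e-05. It was 1 of 5 second transcripts with at least 5% of a gene's reads whose shares were compared (Benjamini-Hochberg adjusted p = 0.0136), and those of Ctsb, Ctss, Ctsl and Gpnmb gave exact p of 0.435, 0.497, 0.123 and 0.710. Without MM5, MM8 and MM9 the difference was 3.05 percentage points (exact permutation p = 0.0278). These shares are Salmon's division of reads between transcripts that share most of their sequence, and the comparison was added after the gene totals were seen.

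**Figure D4:**
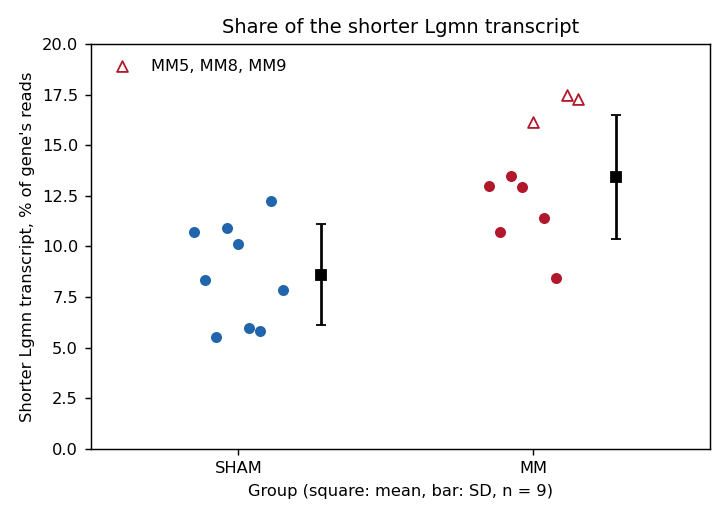
Share of Lgmn reads given to the shorter transcript in each library (vertical axis, percent), with the mean and SD of 9 libraries per group beside the points and MM5, MM8 and MM9 as open triangles. The MM mean of 13.4% lies above the SHAM mean of 8.60%, and the triangles are the 3 highest points.

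Read by library, the 10 genes differed in how far they were raised in MM5, MM8 and MM9. In MM9 the log2 CPM lay above the SHAM mean by 4.80 for Cd68 and 4.36 for Ctss, and in MM5 by 4.37 and 4.05. In MM8 they were 3.99 and 3.17. In MM2 the same differences were -0.26 for Cd68 and 0.02 for Ctss, and in the other 5 MM libraries they lay between 1.04 and 2.04 for Cd68 and between 1.10 and 1.61 for Ctss. Some genes were raised in only part of MM5, MM8 and MM9. In that order the differences were 1.303, -0.012 and 0.904 for Gpnmb, 1.812, 0.214 and 0.657 for Lyz2, and 0.042, 0.315 and 0.446 for Lgmn. Ctsb was lowest in MM9 (1470 CPM) and highest in MM3 (1781 CPM), with MM8 next at 1755 CPM. Ctsd was lowest in MM9 (731 CPM) and highest in MM8 (854 CPM), so that MM8 and MM9, both high in Cd68, stood at or near opposite ends for both proteases.

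**Figure D5:**
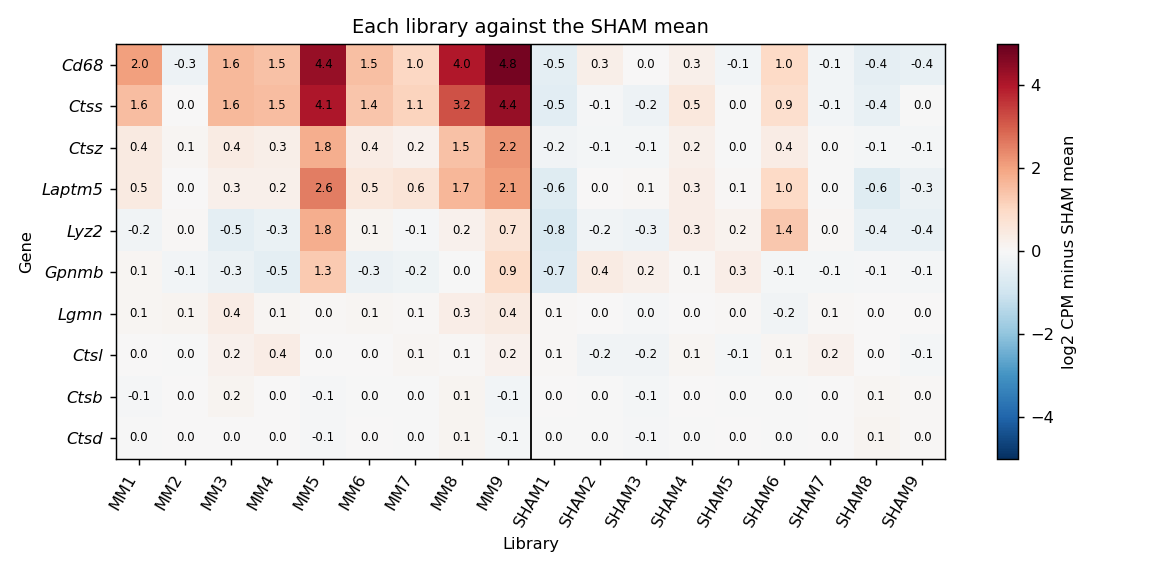
Log2 CPM of each gene in each library minus the mean of the 9 SHAM libraries (colour scale from -5 to 5, values printed in the cells). Cd68, Ctss, Ctsz and Laptm5 are high in MM5, MM8 and MM9 and near 0 in MM2, Lyz2 is high in MM5 and SHAM6, and the rows of Ctsb and Ctsd stay near 0.

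Each gene's excess over its SHAM mean was set beside Ighg2b of the same library in 8 MM libraries, leaving out MM2, whose Ighg2b lay within the SHAM range. The ratio of excess to Ighg2b spanned 2.22-fold for Cd68, 2.99-fold for Ctsz and 3.08-fold for Ctss. It spanned 14.6-fold for Laptm5 and 56.1-fold for Lgmn, but some of these ratios rest on excesses within the SHAM scatter. The Laptm5 excess in MM1, MM3, MM4 and MM6 was 4.59, 2.17, 1.85 and 5.53 CPM, under its SHAM SD of 5.99 CPM. That of Lgmn in MM5 and MM7 was 7.61 and 14.2 CPM, under its SHAM SD of 14.6 CPM. For Cd68, Ctsz and Ctss the excess was above the SHAM SD in all 8 libraries. Whether Laptm5 and Lgmn differ from Cd68, Ctsz and Ctss in following Ighg2b was not tested. For Ctsb, Ctsd, Ctsl, Lyz2 and Gpnmb at least 1 of the 8 MM libraries was at or under the SHAM mean and no ratio was formed. The 7 measured plasma cell and myeloma markers all rose, where 2.75% of all genes tested were called higher. Their list of 9 summed to 42.4 to 8129 CPM in MM and 23.3 to 53.9 CPM in SHAM. Whether the myeloma cells themselves supplied part of the Cd68, Ctss or Ctsz reads was not tested.

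Within the vehicle group Cd68, Ctss, Ctsz, Laptm5 and Lyz2 also varied together, with SHAM6 high and SHAM1 low. Pearson correlations among them over the 9 SHAM libraries, in log2 CPM, ran from 0.837 to 0.961. Those of Gpnmb with them ran from 0.094 to 0.341. SHAM6 was the highest SHAM library for Cd68, Ctss, Ctsz, Laptm5 and Lyz2 and the lowest for Lgmn. SHAM1 was the lowest for Cd68, Ctss, Ctsz, Laptm5, Lyz2 and Gpnmb. Across the 9 SHAM libraries the ratio of highest to lowest was 2.93 for Cd68 and 2.67 for Ctss, well under the 34.7 and 20.5 of the MM libraries. SHAM6 also held the most macrophage marker RNA of its group (127.7 CPM), the most neutrophil marker RNA (295.1 CPM) and the most Schwann cell marker RNA (12100 CPM), and the part of these in its Lyz2 and Laptm5 levels was not tested.

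Macrophages are the resident phagocytes of the ganglion, and their markers were set beside Cd68 and Ctss. Of 11 macrophage markers 5 rose (Aif1, C1qa, C1qb, C1qc and Ms4a7) and 6 did not pass, where 2.75% of all genes tested were called higher. Their median log2 fold change was 1.34, with 10 of 11 above 0. Cx3cr1 was at 10.6 CPM in MM5, but at 4.06 CPM in MM8 and 3.94 CPM in MM9, inside the SHAM values of 2.70 to 8.83 CPM. The sum below is of all 11. The sum of the 11 markers ran from 84.5 to 416 CPM in MM (median 104.5) and from 52.1 to 127.7 CPM in SHAM (median 70.1). It was 416 CPM in MM5, 204 in MM8 and 250 in MM9, so MM5 led in macrophage markers, Laptm5, Lyz2 and Gpnmb, while MM9 led in Ighg2b, Cd68, Ctss and Ctsz. Other cell types differed in the same libraries. Ganglion neuron markers summed lowest of all 18 libraries in MM5 (5163 CPM), next lowest in MM9 (6989 CPM), and to 9111 CPM in MM8. MM5 also had the highest Schwann cell sum (15990 CPM) and endothelial sum (173.9 CPM) of all libraries, and MM9 the lowest satellite glia sum (1706 CPM). The part of these shifts in the results was not tested. C1qb, a chain of complement C1q made by tissue macrophages, was at 103 CPM in MM5 and 57.2 CPM in MM9 (log2 fold change 1.45 ± 0.32 SE, edgeR adjusted p = 0.0263). Without MM5, MM8 and MM9 the median was 0.39, and 5 of the 11 were higher at an unadjusted p under 0.05. In that fit 0 of the 11 passed in edgeR, where only 0.331% of all genes tested were called higher. The count also fell to 0 without MM5, MM8, MM9, SHAM1, SHAM2, SHAM3, SHAM8 or SHAM9 alone, and to 1 without SHAM5 or SHAM7, with 7 or 8 of 11 at an unadjusted p under 0.05 in each of those fits. Calls fell over all genes too, to 75 to 173 higher in those fits against 433 with all libraries. In bulk ganglia, more cells of a type and more RNA per cell cannot be told apart.

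Of 5 monocyte markers, Plac8 and Ly6c2 rose (log2 fold change 2.31 ± 0.55 and 2.49 ± 0.66 SE), where 2.75% of all genes tested were called higher. Neither passed without MM5, MM8 and MM9 (edgeR adjusted p = 0.332 and 0.525), nor when any 1 of the 11 libraries named for Ctsz was left out. With no filter on low counts both missed the threshold (adjusted p = 0.0575 and 0.101), as Ly6c2 did with RLE factors (0.0501). None of 9 measured neutrophil markers passed in edgeR, where 0 were higher and 3 lower at an unadjusted p under 0.05 and DESeq2 called 2 lower; their list summed to 21.1 to 118 CPM in MM and 22.2 to 295.1 CPM in SHAM. Of the 5 osteoclast markers 2 were measured and none passed in edgeR (1 higher at an unadjusted p under 0.05, 1 by DESeq2), and Ocstamp, Dcstamp and Calcr never exceeded 0.606, 0.429 and 0.143 CPM. Of the melanocyte markers, whose cells share Gpnmb, Tyrp1 alone was measured and did not pass, while Pmel stayed at or under 1.16 CPM and Tyr, Dct and Mlana at or under 0.140 CPM. No listed marker was at 0 in every library. The part of these cell types in the results was not tested.

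Phagocytic receptors and their adaptors bind the cargo that a phagocyte delivers to its lysosomes. Of 16 tested, Fcgr4, Fcgr2b, Fcgr1, Fcer1g, Itgb2 and Msr1 rose and 10 did not pass, with a median log2 fold change of 1.22. These 6 stand beside 2.75% of all genes tested that were called higher. Fcgr4, an activating receptor for IgG, rose by 3.13 ± 0.51 on the log2 scale (SE; edgeR adjusted p = 0.00711) from 0.437 CPM (SD 0.143) in SHAM to 3.89 CPM (SD 3.54) in MM. Fcgr2b, the inhibitory IgG receptor, rose by 2.18 ± 0.46 (SE; edgeR adjusted p = 0.0240). These receptor genes are related in sequence, so reads may be divided among them. In the fit that leaves out MM5, MM8 and MM9 the median was 0.39. There 1 of the 16 passed, where 0.331% of all genes tested were called higher. The count was also 1 without MM5, SHAM1, SHAM7 or SHAM8 alone, 2 without MM8, MM9, SHAM2, SHAM3 or SHAM9, and 3 without SHAM4 or SHAM5, while Fcgr4 passed in all 18 such fits. The single-library fits with 1 to 3 receptors called 75 to 262 of all genes higher, against 433 with all libraries.

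The rest of the lysosome was tested with 85 further genes in 6 lists, of which 80 passed the filter on low counts. Of these 80 genes 3 rose and 1 fell, where 2.75% and 0.241% of all genes tested were called higher and lower, and their median log2 fold change was 0.06. DESeq2 called 9 of the 80 higher and 1 lower, where it called 5.99% of all genes higher and 256 of 15774 lower. Without 1 library the edgeR counts of the 80 ran from 0 to 6 higher and from 0 to 1 lower, with 1 higher and 0 lower without SHAM4, 0 and 0 without any other of the 11 libraries named for Ctsz, and 6 higher without MM2, MM3 or SHAM6. Over all genes, 262 were higher without SHAM4 and 75 to 173 without any other of the 11. Without MM2, MM3 and SHAM6, 891, 538 and 593 of all genes were higher, against 433 with all libraries. With all libraries, edgeR had 19 of the 80 higher and 2 lower at an unadjusted p under 0.05, with no share of all genes counted. The summed level of the 6 lists ran from 9578 to 9971 CPM in MM and from 9368 to 9916 CPM in SHAM.

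Of the 31 hydrolases tested, Galns and Gusb rose and 29 did not pass. Galns, which removes sulfate from keratan and chondroitin sulfate, was at 9.98 CPM (SD 7.85, n = 9) in MM and 3.63 CPM (SD 0.593, n = 9) in SHAM (log2 fold change 1.46 ± 0.34 SE, edgeR adjusted p = 0.0300). Gusb, beta-glucuronidase, ran from 18.7 to 22.7 CPM in SHAM and from 19.1 to 161 CPM in MM (log2 fold change 1.44 ± 0.35 SE, edgeR adjusted p = 0.0341). Both were highest in MM9, as Cd68 and Ctss were, and both passed without MM5, MM8 and MM9 too, at log2 fold changes of 0.52 and 0.46 (edgeR adjusted p = 0.0498 and 0.0390). Yet Gusb lost its call when any 1 of the 11 libraries named for Ctsz was left out, with adjusted p up to 0.0809, and Galns when any 1 of these but SHAM4 was, with adjusted p up to 0.0702. Both also missed the threshold with no filter on low counts (0.0502 for Galns and 0.0666 for Gusb), without MM2, SHAM5 and SHAM9 (0.0628 and 0.0544) and without SHAM7 and SHAM8 (0.122 and 0.123).

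None of 7 further cathepsins passed in edgeR, with 4 higher at an unadjusted p under 0.05 and 1 called higher by DESeq2. The lowest p was that of Ctsc, the dipeptidyl peptidase that activates granule proteases (log2 fold change 1.02 ± 0.30 SE, edgeR adjusted p = 0.0642). Of 16 proton pump genes, which acidify the lysosome, none passed in edgeR (2 higher at an unadjusted p under 0.05, 1 by DESeq2), and Tcirg1 had the lowest p at 0.89 ± 0.26 (SE; edgeR adjusted p = 0.0697). Of 15 membrane and cholesterol export genes, Mcoln1, the calcium channel mucolipin 1, fell by 0.14 ± 0.04 on the log2 scale (SE; edgeR adjusted p = 0.0366). In that list 4 genes were higher and 1 lower at an unadjusted p under 0.05, and DESeq2 called 2 higher and 1 lower. Among 8 genes for MiT/TFE transcription factors and enzyme sorting, M6pr, the cation-dependent mannose 6-phosphate receptor, rose by 0.22 ± 0.06 (SE; edgeR adjusted p = 0.0493). None of 3 cathepsin inhibitors passed in edgeR or DESeq2, with 1, Cstb, higher at an unadjusted p under 0.05 (log2 fold change 0.22 ± 0.09 SE, edgeR adjusted p = 0.161). The calls of Mcoln1 and M6pr were lost without MM5, MM8 and MM9 and without scaling factors (adjusted p = 0.0551 and 0.0562). Leaving out any 1 of the 11 libraries named for Ctsz also ended both calls, as leaving out MM4, MM6 or MM7 did for M6pr.

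The 5 genes outside the list with the highest mean Pearson correlation with the 10 members, over 18 libraries of both groups in log2 CPM, were Uhrf1 (0.590), Ube2c (0.587), Mcm3 (0.585), Ccna2 (0.583) and Tuba1c (0.583). The mean covers values that differed widely between members. Uhrf1 had a correlation of 0.95 with Cd68 and 0.96 with Ctss, and of -0.03 with Ctsb and 0.05 with Ctsd. The points share the libraries MM5, MM8 and MM9, in which Uhrf1 was at 12.3, 10.5 and 16.9 CPM, and the correlations are given as a description.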

How the data were processed

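RNA of whole lumbar DRG was sequenced in 18 libraries, 9 MM and 9 SHAM, each taken as 1 mouse as the series design gives 9 mice per group. The authors quantified them with Salmon 1.5.2 and named GRCm39 and DESeq2, per the submitters' processing notes; options are not given in the sources used here. The deposited files hold an estimated count per transcript, which the authors did not scale, and a TPM value, which Salmon scaled. A further deposited table gives, for each gene and library, a normalized signal; the notes name DESeq2 for it.

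Estimated counts were summed per gene by Ensembl transcript number and rounded. Links came from an older annotation, GENCODE M21 on GRCm38, and serve for names. Of 137562 transcripts 3620 had no link (0.850% to 1.34% of reads). Genes were filtered by filterByExpr, scaled by TMM and tested with edgeR 4.0.16 (R 4.3.3), robust quasi-likelihood, group as the only term, Benjamini-Hochberg adjusted p under 0.05 over 15774 genes. The common biological coefficient of variation was 0.258. DESeq2 1.42.0 was an alternative. The SE of a log2 fold change was derived from the edgeR test, as its absolute value over the square root of the F statistic. Intervals of fold changes with all libraries are 95%, from that SE and a t distribution with 16 residual degrees of freedom. The edgeR p-values come from the F test itself, so intervals and p-values rest on different reference distributions. The fit was also run on simulated counts, with an equal change in all MM libraries and the spread of the SHAM libraries. That setting differs from these data, so it does not check calls that rest mainly on MM5, MM8 and MM9. Exact permutation tests and plots used Python 3.11.15, scipy 1.17.1 and matplotlib 3.10.9. No 2 libraries held identical values.

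The 10 members and all gene lists were chosen with earlier results of these data known. Named genes are the members, Ighg2b, the 5 most alike genes (mean of at least 1 CPM), and per list up to 2 genes with the lowest p in each direction among those past the threshold, or, where none passed, the 1 with the lowest p; marker genes printed only as names were chosen by being called or under the filter. Promoters came from RefSeq on GRCm38.p6. Protein sequences were not analysed here. Alternatives covered scaling, the filter, DESeq2, length-scaled counts, a replicate block and leaving out libraries.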

Additional observations from a re-analysis of the deposited data

Results flagged for a closer look

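A gap test was run per group on the log2 CPM of 39 genes, the 10 members and the other named genes. It marks a group of 9 libraries when the highest or lowest lies far from the nearest other one relative to the group's range. Of 78 groups 6 were marked, and chance marks about 1 in 20. Among members, Lyz2 in MM5 was high at 7.22 log2 CPM, against 4.94 to 6.07 in the other MM libraries. Lgmn in SHAM6 was low at 7.90, against 8.05 to 8.16 in the other SHAM libraries. Gpnmb in SHAM1 was low at 1.996, against 2.57 to 3.11. Outside the members, Mcoln1 in MM3 was high at 6.13, against 5.88 to 6.01 in the other MM libraries. M6pr in SHAM6 was high at 6.81, against 6.53 to 6.66 in the other SHAM libraries. Tyrp1, a melanocyte gene, was high in SHAM5 at 4.804, against 3.87 to 4.33.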

How the results depend on the processing

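Of the called members, Cd68 and Ctss passed with edgeR without each single library (18 of 18), and Ctsz in 7 of 18. No member that passed changed sign. Counts of genes called higher (433) and lower (38), of members higher (3 of 10) and of the 80 other lysosomal genes higher and lower (3 and 1) moved as follows. Without scaling factors 19 genes were lower, with 0 other lysosomal genes lower (1 at an unadjusted p under 0.05). DESeq2 gave 945 higher and 256 lower, 5 members and 9 other lysosomal genes higher. With no filter, 20 were lower, with 0 and 0 other lysosomal genes called (18 and 2 unadjusted). Length-scaled counts gave 65 lower. Without MM5, MM8 and MM9, 53 were higher and 7 lower, 1 member higher and 0 other lysosomal genes lower (1 unadjusted). Without MM2, SHAM5 and SHAM9, 229 were higher and 11 lower, with 0 and 0 other lysosomal genes (14 and 3 unadjusted). Without SHAM7 and SHAM8, 29 were higher and 6 lower, with 0 members (5 unadjusted) and 0 and 0 other lysosomal genes (14 and 1 unadjusted). The cause of these moves was not tested. Leaving out 1 library at a time gave 75 to 891 higher and 9 to 139 lower, 2 to 4 members higher, 0 to 6 other lysosomal genes higher and 0 to 1 lower. The Lgmn transcript share, 4.82 percentage points, ranged from 4.32 to 5.45. With the replicate number as a block, 7 genes were higher and 1 lower, with 0 members (5 unadjusted) and 0 and 0 other lysosomal genes (10 and 1 unadjusted); Cd68 was at 2.29 (adjusted p = 0.222), Ctss at 2.07 (0.199) and Ctsz at 0.81 (0.232). The labels name no pairing, so the number was not taken to pair mice. Of 9 same-numbered pairs 2 deviated together (correlation over 0.1, range -0.32 to 0.26). Such correlations cannot show whether same-numbered mice shared a day or a cage, so a pairing that the labels leave out remains possible. Depth limits Cd68 and Gpnmb in SHAM most, at 38 and 73 reads in SHAM1.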
